A study of Mus musculus with 20 samples.

Results

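The genes described here are 9 members of 2 linked mitochondrial pathways, followed across young and old mouse hearts. Iscu, Nfs1, Isca1, Isca2, Glrx5, Hscb and Lyrm4 serve the assembly of iron-sulfur clusters, and Alas1 and Fech serve the synthesis of haem. The genes were chosen by name, through the symbols of the array's annotation. All 9 were on the array and all 9 passed the filter on low values, out of 9275 genes tested. The study compared 10 old with 10 young male mice of the inbred strain C57BL/6J, 1 Affymetrix MOE430 2.0 array per mouse, with RNA from the cardiac ventricle. Old mice were 25 to 28 months of age and young mice 4 to 6 months. The labels give no treatment and no genetic change in either group, and all mice were housed in a specific pathogen free facility. The title of the series speaks of mitochondrial gene expression with age, and the comparison of old with young is the only one the design holds.

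Iron-sulfur clusters are small cofactors of iron and sulfide that carry electrons in the respiratory chain and serve in the active sites of some enzymes. In mitochondria the cysteine desulfurase Nfs1, held stable by its small partner Lyrm4, takes sulfur from cysteine and a first cluster is built on the scaffold protein Iscu. The co-chaperone Hscb then helps to release the cluster, the glutaredoxin Glrx5 carries it on, and Isca1 and Isca2 act in forming the larger clusters of the respiratory chain and of lipoate synthesis. Haem synthesis starts in mitochondria with 5-aminolevulinate synthase, whose general form is Alas1 and whose red cell form is Alas2. It ends there with ferrochelatase, Fech, which inserts iron and itself holds an iron-sulfur cluster. The heart needs both cofactors in large amounts for its respiratory chain and its myoglobin.

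All values are log2 signals, so a difference of 1 is a doubling, and differences are old minus young. An array shows how one probe set varies between hearts, and the levels of different genes cannot be set against each other. A gene was called when its adjusted p in limma, over all 9275 genes, was under 0.05. Several things set the old arrays apart. The atrial genes Myl7 and Sln were above a value of 4 in 9 old arrays and in 0 young ones, although the labels give ventricle. Of 8 ventricular genes 0 were called, with 7 estimates below 0 and 1 above. Among them Myl2 and Myl3 were between 14.92 and 15.60 in all 20 arrays. Irx4 was at −0.58 (limma adjusted p = 0.0845), from 4.86 to 6.87 in old and from 6.01 to 7.05 in young. Of the 10 macrophage markers 8 were called higher, with a summed level of 12.16 to 13.42 in old and 11.47 to 12.09 in young. Atrial and fibroblast markers were higher in old too, with 5 of 8 and 4 of 8 listed genes called, and the summed atrial level was 10.77 to 16.57 in old and 10.12 to 12.41 in young. In bulk tissue, more cells of a type and more RNA per cell cannot be told apart. Deviations from the group means put the arrays into 5 sets of 2 old and 2 young each, with the number of sets fixed by choice. The grouping comes from the values and has no label. Of 8 endothelial genes 2 were called higher, Vwf by 2.27 among them, and 1 lower. The fat cell gene Adipoq was above 4 in 6 old arrays, up to 12.02, and in 0 young ones, and Pck1 and Cidec reached 10.77 and 8.01 in old and were under 4 in all young arrays. The summed fat level was 14.19 to 15.34 in old and 14.15 to 14.38 in young. It follows mainly Fabp4, which alone was at 14.18 to 15.11 in old and 14.15 to 14.38 in young. Fabp4 was not called (0.15, limma adjusted p = 0.311). The part of macrophage, fibroblast, endothelial and fat cell RNA in the results that follow was not tested.

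Of the 9 genes, 1 changed with age. Nfs1 was lower in old hearts, with a change of −25.5% in linear terms, and the other 8 did not pass the test. Calls were made for 18.7% of all genes tested, 7.49% as lower and 11.2% as higher in old, so 1 lower call among 9 genes is not apart from that background. No member was called higher; without adjustment the p was under 0.05 for 1 member, Nfs1 itself. The median difference of the 9 was −0.051, against 0.0088 over all genes tested. The estimates were below 0 for 5 genes and above 0 for 4. For no member did all old arrays lie on one side of all young ones, a pattern seen below in 0.42% and above in 1.36% of genes.

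**Figure D1:**
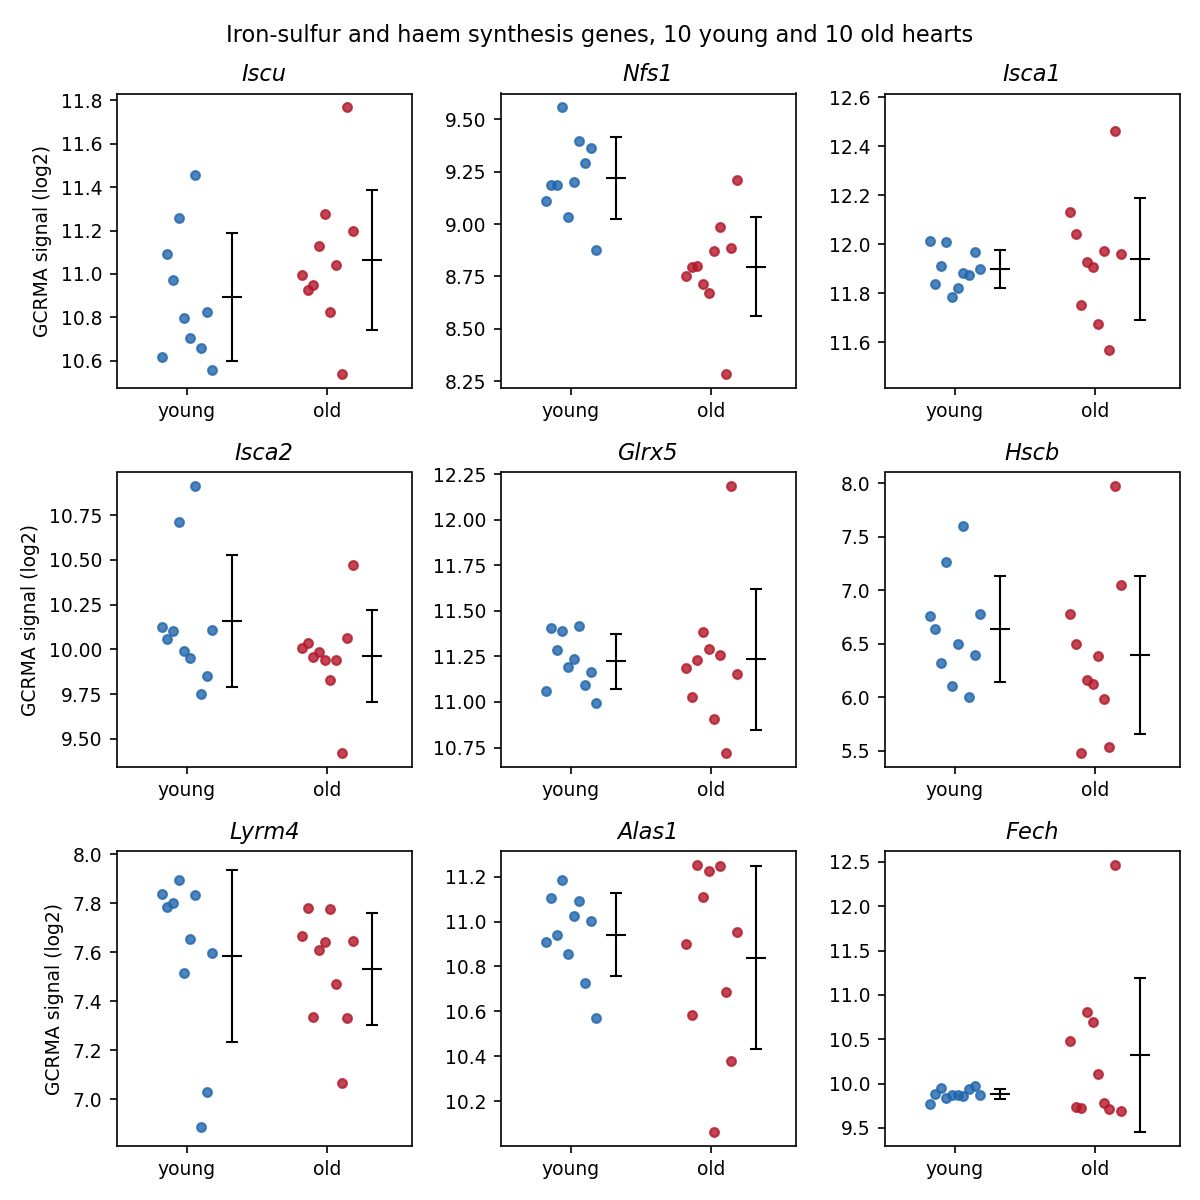
Signal of each of the 9 genes (vertical axes, GCRMA signal, log2) in 10 young and 10 old hearts; points are arrays in the order of their title numbers and the bars beside them are mean ± SD. Nfs1 shows 7 of 10 old arrays below all young ones, and Fech shows young arrays between 9.77 and 9.97 beside old ones between 9.69 and 12.47.

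Nfs1, the sulfur donor of the pathway, ran in young hearts from 8.88 over a median of 9.19 to 9.56. In old hearts it ran from 8.28 over 8.80 to 9.21. The old arrays sat lower as a body: 7 of 10 lay below every young array and 9 of 10 below the young median, the exception being old replicate 10 at 9.21. Mean Nfs1 was 9.22 ± 0.19 in young hearts and 8.80 ± 0.24 in old hearts (SD, n = 10 per group). The difference was −0.42 ± 0.10 (SE; 95% confidence interval −0.63 to −0.21; limma adjusted p = 0.00556). A second probe set of the gene gave nearly the same size, −0.41, from 8.05 ± 0.31 in young to 7.64 ± 0.42 in old (SD, n = 10 each), but did not pass when all probe sets were fitted (limma adjusted p = 0.0849). Another was near the floor, at most 2.73 in any array, and tells nothing of the gene.

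The fall of Nfs1 appeared in each of the 5 array sets, at −0.22, −0.43, −0.35, −0.69 and −0.43. The sets were found on these same values, so a block on them lowers the residual spread by construction and a call under it is no independent support. With that block, where 36.1% of all genes were called, Nfs1 was called too (−0.42 ± 0.085, SE; limma adjusted p = 0.00108), and all 20 fits that left out 1 array called it, at −0.47 to −0.37. The call was lost in 3 of 12 other settings with the estimate at a like size, those with the atrial index, without the atrial-rich arrays and, as given further on, with the red cell index. When an index of the atrial transcripts Myl7 and Sln entered the fit it was −0.47 ± 0.14 (SE; limma adjusted p = 0.0554). Without the 7 old arrays in which Myl7 was above 10 it was −0.38 ± 0.13 (SE; 3 old against 10 young; limma adjusted p = 0.157). In those fits 3.74% and 2.93% of all genes were called.

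The regulatory sequence before the start of transcription is shown for the members in which a search found either of 2 motifs linked to nuclear genes of mitochondria. Windows of 250 bases before the start were taken from RefSeq promoters on GRCm38.p6, and 1 chromosome was left out for the members. Of the 9 members 6 had a window among those taken, and Alas1 had 2. The letters searched were CTTCCG, the core bound by ETS factors such as GABP, and CGCATGCG, the core of the site bound by NRF-1, on both strands. Capitals mark the matches, and the sequences run from 5′ to 3′ on the strand of the gene.
Nfs1, chr2:156144187-156144436, minus strand: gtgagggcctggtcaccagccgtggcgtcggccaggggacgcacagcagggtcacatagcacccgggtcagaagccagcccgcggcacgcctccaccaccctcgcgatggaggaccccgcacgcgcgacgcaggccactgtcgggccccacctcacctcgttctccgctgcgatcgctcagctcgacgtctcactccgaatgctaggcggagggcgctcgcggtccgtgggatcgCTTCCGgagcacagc
Isca1, chr13:59769790-59770039, minus strand: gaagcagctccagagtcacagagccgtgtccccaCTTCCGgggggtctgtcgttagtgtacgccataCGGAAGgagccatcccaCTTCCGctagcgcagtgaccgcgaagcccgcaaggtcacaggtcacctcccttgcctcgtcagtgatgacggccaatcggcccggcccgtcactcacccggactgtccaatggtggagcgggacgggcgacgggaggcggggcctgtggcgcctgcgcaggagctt
Isca2, chr12:84773020-84773269, plus strand: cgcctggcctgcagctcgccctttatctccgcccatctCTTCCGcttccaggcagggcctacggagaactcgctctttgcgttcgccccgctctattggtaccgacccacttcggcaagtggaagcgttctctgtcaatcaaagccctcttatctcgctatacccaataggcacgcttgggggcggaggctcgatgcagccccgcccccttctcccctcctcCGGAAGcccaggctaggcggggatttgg
Alas1, chr9:106247731-106247980, minus strand: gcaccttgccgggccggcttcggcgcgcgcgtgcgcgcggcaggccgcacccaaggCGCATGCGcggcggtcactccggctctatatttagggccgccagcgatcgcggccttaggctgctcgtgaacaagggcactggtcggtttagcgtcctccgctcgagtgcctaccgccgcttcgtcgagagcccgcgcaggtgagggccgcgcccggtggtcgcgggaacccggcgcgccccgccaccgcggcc
Nfs1 held the ETS core once, with 9 bases between it and the start. Isca2 held it at 2 places and Isca1 at 3. That core was found in 13.6% of 32851 such windows of all genes, with no chromosome left out. Alas1 held the NRF-1 letters once, with 186 bases between them and the downstream of its 2 starts, and 1.55% of all windows did. The called gene and genes that were not called thus share the ETS letters; a match is a description and not a site.

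Lyrm4, the partner of Nfs1 in the desulfurase complex, did not pass the test. It ran from 6.89 over 7.72 to 7.89 in young and from 7.07 over 7.63 to 7.78 in old, and the groups overlapped along their whole range. The difference was −0.051 (95% confidence interval −0.32 to 0.22; limma adjusted p = 0.832). Among the arrays, young replicates 18 and 19, of 1 array set, were the low ones of their group, at 6.89 and 7.03. The difference lay between −0.37 and 0.31 in the 5 sets, below 0 in 2 and above 0 in 3.

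The scaffold gene Iscu ran from 10.56 over 10.81 to 11.46 in young and from 10.54 over 11.02 to 11.77 in old. Old arrays were above the young median in 9 of 10 cases, yet the groups overlapped almost fully. The difference was 0.17 ± 0.14 (SE; 95% confidence interval −0.11 to 0.45; limma adjusted p = 0.408). The estimate was above 0 in all 5 array sets, from 0.0068 to 0.38, and was 0.093 without old replicate 9. The co-chaperone gene Hscb, which frees the cluster from Iscu, was the most variable of the assembly genes. It ran from 6.00 over 6.57 to 7.60 in young and from 5.48 over 6.27 to 7.97 in old, with old replicate 9 at the top. The difference of Hscb was −0.24 ± 0.26 (SE; limma adjusted p = 0.564), and without old replicate 9 it was −0.41 (limma adjusted p = 0.197). Leaving out old replicate 8, old replicate 3 or young replicate 17 gave −0.14, −0.14 and −0.13.

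Of the carriers, Glrx5 ran from 10.99 over 11.21 to 11.42 in young and from 10.72 over 11.21 to 12.19 in old. The medians were alike and the old arrays reached further in both directions. Its difference was 0.011 ± 0.13 (SE; 95% confidence interval −0.26 to 0.28; limma adjusted p = 0.965). The 1 array far from the rest was old replicate 9, without which the estimate of Glrx5 was −0.095 (limma adjusted p = 0.518). Isca1 ran from 11.78 over 11.89 to 12.01 in young and from 11.57 over 11.94 to 12.46 in old, with 3 old arrays below and 3 above every young one. Its difference was 0.039 ± 0.091 (SE; 95% confidence interval −0.15 to 0.23; limma adjusted p = 0.809). The second probe set of Isca1 gave 0.11, also not called. Isca2, its partner, ran from 9.75 over 10.08 to 10.91 in young and from 9.42 over 9.97 to 10.47 in old. Old arrays were below the young median in 9 of 10 cases, but the difference of −0.19 ± 0.14 (SE; 95% confidence interval −0.48 to 0.095) was not called (limma adjusted p = 0.360). Without young replicate 17 the estimate of Isca2 was −0.11. It was below 0 in all 5 array sets, from −0.54 to −0.088, and not called with the set as a block (limma adjusted p = 0.0650).

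**Figure D2:**
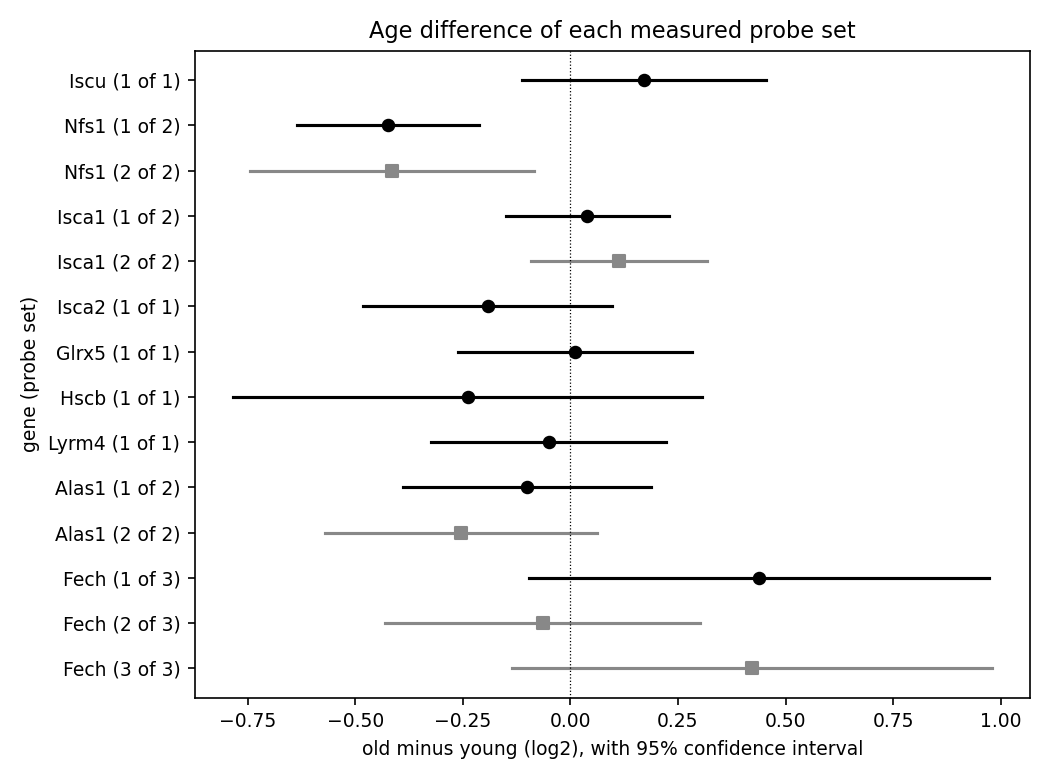
Difference of old minus young (horizontal axis, log2) for the 14 probe sets of the 9 genes that were above the filter, with the 95% confidence interval of a limma fit over all probe sets; circles are the probe sets used for the gene test and squares the other ones. The interval of Nfs1 lies below 0 for both of its probe sets, and the 3 of Fech give 0.44, −0.064 and 0.42.

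Alas1, the general entry enzyme of haem synthesis, did not pass the test. It ran from 10.57 over 10.97 to 11.18 in young and from 10.06 over 10.93 to 11.25 in old. The old hearts were more spread (SD 0.41 against 0.19), with 3 arrays above and 2 below every young one. Its difference was −0.10 ± 0.14 (SE; 95% confidence interval −0.39 to 0.18; limma adjusted p = 0.655). A second probe set of Alas1 gave −0.25 and was not called either (limma adjusted p = 0.285 over all probe sets). Both were lowest in old replicate 6 and highest in old replicate 3 within that group, and their deviations followed each other (r = 0.87, n = 20 arrays). Without old replicate 6 the estimate of Alas1 was −0.015, and without old replicate 9 it was −0.050. The direction is not settled, since its estimate was 0.10 in the fit that held the atrial index (limma adjusted p = 0.806).

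Fech, the last enzyme of haem synthesis, showed the widest change in spread among the probe sets used for the gene test. Young arrays ran from 9.77 over 9.87 to 9.97, with an SD of 0.059. Old arrays ran from 9.69 over 9.94 to 12.47, with an SD of 0.87. By this probe set 5 old arrays lay above every young one and 4 below, so the groups differed in width more than in their middle. Old replicate 9 was at 12.47, and replicates 4, 5, 1 and 6 followed at 10.81, 10.70, 10.47 and 10.10. The difference of Fech was 0.44 ± 0.25 (SE; 95% confidence interval −0.087 to 0.96; limma adjusted p = 0.242). Without old replicate 9 it was 0.20 (limma adjusted p = 0.358). The probe sets of the gene disagreed on the mean and on how the groups overlapped. Of those above the filter, 2 gave 0.44 and 0.42 and the other gave −0.064, from 10.10 ± 0.16 in young to 10.03 ± 0.56 in old (SD, n = 10 each). The one at 0.42 had 4 old arrays above every young one and 0 below, and the one at −0.064 had 1 above and 5 below. The ratio of old to young SD was 4.05 and 3.59 for these, against 14.7 for the probe set used. All 3 were highest in old replicate 9, and their deviations followed each other, with r between 0.87 and 0.96 over 20 arrays. Another lay at the floor in every array, at most 2.15. The mean over the 3 probe sets gave 0.27 (limma adjusted p = 0.455).

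By the probe set used, Fech lay above every young array in 5 old hearts. By the mean of 4 red cell markers described below, red cell transcripts were high in 4 of them, old replicates 9, 4, 5 and 1, and not in old replicate 6. Of 12 red cell markers listed for this comparison, 7 were on the array by a single name and 4 passed the filter: Alas2, the red cell form of the entry enzyme, Slc4a1, the anion exchanger of the red cell membrane, Bpgm, which makes bisphosphoglycerate, and Tfrc, the transferrin receptor. The first 3 of these were called higher in old, and Tfrc was not (0.59, limma adjusted p = 0.215). Taken singly, Alas2 and Bpgm each lay above every young array in 9 old arrays, and Slc4a1 and Tfrc each in 5. Slc4a1 rose from 5.18 ± 0.31 in young to 7.59 ± 2.68 in old (SD, n = 10 per group; limma adjusted p = 0.0321). The summed level of the 7 markers was 10.42 to 14.69 in old and 10.15 to 11.14 in young. Other genes of the red cell membrane were under the filter, with Epb42 above 4 in 3 old arrays and Rhag in 1, and neither in any young one. The globin probe set named Hba-a1 stayed near the floor in all arrays, at most 2.57.

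An index was formed as the mean log2 value of the 4 tested markers. It was 7.91 to 12.23 in old, with a median of 8.64, and 7.50 to 8.30 in young, with a median of 7.88. Old replicates 9, 4, 5 and 1 had the highest values, at 12.23, 11.28, 10.41 and 10.41, and old replicate 6 was at 7.94, within the young range. Old replicates 2, 3, 7 and 8, at 8.36, 8.67, 8.60 and 8.60, also lay above the young maximum of 8.30. In replicates 2, 3 and 8 Fech was nonetheless below every young array, at 9.73, 9.73 and 9.72. Deviations of Fech from its group means followed those of the index over the 20 arrays (Pearson's r = 0.89, permutation p = 0.0006, adjusted p = 0.0028; Spearman's rho = 0.92, permutation p = 0.00019, adjusted p = 0.00182). The p-values come from 100000 two-sided permutations within the groups, adjusted over the 14 probe sets of the 9 genes. Without the 2 arrays farthest from the median of the index, old replicates 9 and 4, r was 0.85. With all 20 arrays kept, it was 0.94 after the means of array set and group were removed. Within the old arrays r was 0.90 and within the young ones 0.18 (n = 10 each), so the relation rests on the old hearts. The Fech probe set whose mean did not rise followed the index too (r = 0.84, adjusted permutation p = 0.0028; rho = 0.75).

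**Figure D3:**
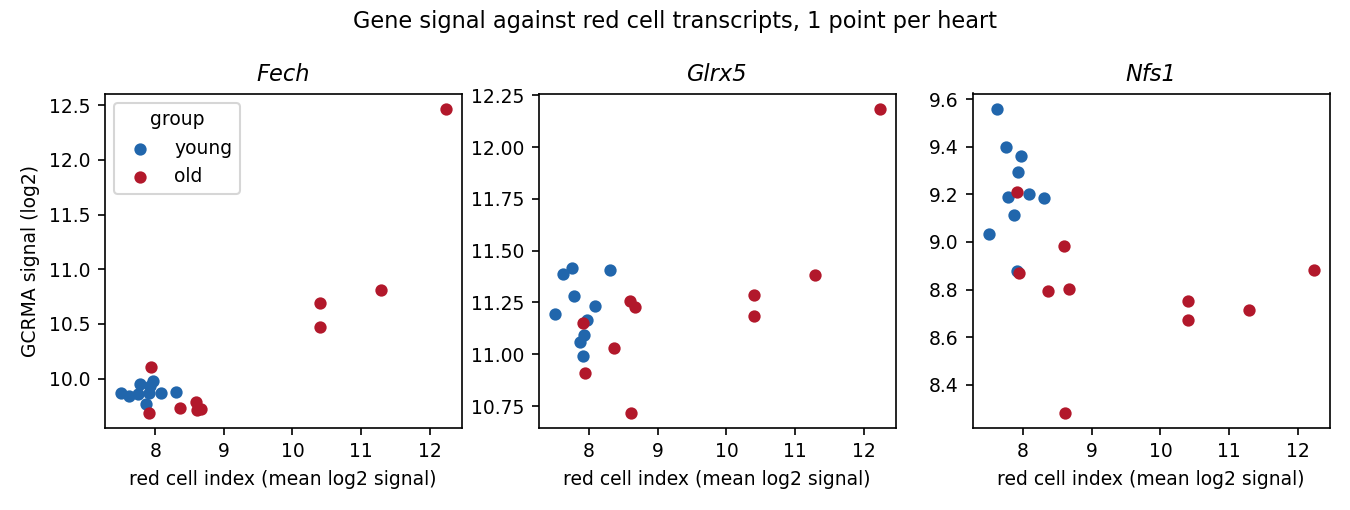
Signal of Fech, Glrx5 and Nfs1 (vertical axes, GCRMA signal, log2) against the red cell index (horizontal axes, mean log2 signal of Alas2, Slc4a1, Bpgm and Tfrc), 1 point per heart, 10 old and 10 young. Fech rises with the index among the old hearts, Glrx5 is high in the 1 heart with an index of 12.23, and Nfs1 shows no such relation (r = −0.14).

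Glrx5 followed the index less tightly (r = 0.73, permutation p = 0.00289, adjusted p = 0.0101; rho = 0.49, adjusted p = 0.122), and r dropped to 0.44 without those 2 arrays. Its relation therefore rests on them in part. After the means of array set and group were removed r was 0.82, but that value keeps those 2 arrays and cannot show the relation without them. Isca1 gave 0.62 and 0.70 with its 2 probe sets, of which the second passed by Pearson's r (adjusted permutation p = 0.0404) and neither by rank. Nfs1, Isca2, Lyrm4, Alas1, Iscu and Hscb did not pass with either measure, with r between −0.14 and 0.49 for the probe sets tested as genes. With the set means removed, r became 0.73 for Iscu, 0.69 for Hscb and −0.41 for Nfs1, values that keep all 20 arrays and carry no test. With the index as a covariate, a reading chosen after seeing the data, the estimate of Fech turned to −0.36 ± 0.16 (SE; limma adjusted p = 0.187) and that of Glrx5 to −0.30 ± 0.12 (SE; limma adjusted p = 0.155). Neither was called, and 7.28% of all genes were. Nfs1 stayed lower at −0.38 ± 0.13 (SE) but lost its call (limma adjusted p = 0.0816), and with the array sets as a block as well, with the limit on that block given above, its adjusted p was under the threshold (−0.36 ± 0.11, SE; limma adjusted p = 0.0293). In that last fit Hscb was called too, at −0.50 (limma adjusted p = 0.0208), beside 18.9% of all genes. Old replicates 1, 2, 3, 4, 5, 7, 8 and 9 had an index above that of every young array, so age and index overlap in these fits.

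Among themselves the 9 genes varied together in part. Of their 36 pairs, 32 had deviations that correlated above 0, with a median r of 0.39 over 20 arrays. The same share among pairs of all genes was not computed, so it is not shown to be particular to these genes. After adjustment over the 36 pairs, 13 passed by Pearson's r and 3 by both r and rho. The permutations ran within the age groups and did not hold the array sets, so their p-values take no account of the sets. Iscu and Glrx5 formed the closest pair, scaffold and carrier (r = 0.87 and rho = 0.88, permutation p = 1e-05 each, the smallest these permutations can give; adjusted p = 0.00036). Their r was 0.85 without the 2 arrays farthest from the median of Iscu, and 0.92 after the means of array set and group were removed. The other pairs that passed both were Iscu with Isca2 (r = 0.70, rho = 0.64, adjusted permutation p = 0.00814 and 0.0193) and Isca2 with Hscb (r = 0.70, rho = 0.68, adjusted permutation p = 0.00792 and 0.00756). They kept r of 0.70 and 0.61 without the 2 farthest arrays. Once the means of array set and group were removed they dropped to 0.20 and −0.082. These values carry no test, so whether the 2 relations hold within sets is not settled. Glrx5 and Fech had r = 0.82 (permutation p = 0.00629, adjusted p = 0.0297) and rho = 0.49 (adjusted p = 0.116), and r was 0.35 without old replicates 9 and 8.

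**Figure D4:**
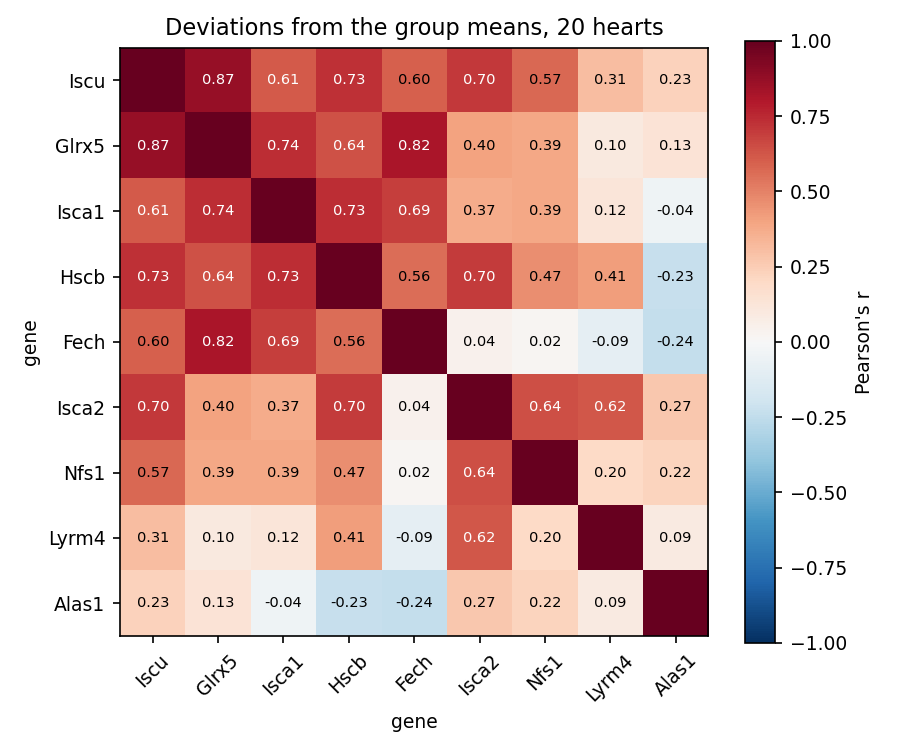
Pearson's r between the 9 genes (both axes) for deviations from the group means over 20 hearts; colour and printed values give r. Iscu and Glrx5 have the highest value, 0.87, while Alas1 has r between −0.24 and 0.27 with the other 8 genes.

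Single arrays marked many of the genes at once. Old replicate 8 was the lowest old array for 6 of the 9 genes, and old replicate 9 was the highest for 5. Among the young, replicate 20 was the lowest for 4 and replicate 17 the highest for 4. The share of the variation within the age groups that lay between the array sets was 79.6% for Hscb, 77.5% for Isca2, 67.7% for Iscu and 63.6% for Lyrm4. It was 42.1% for Glrx5, 40.8% for Nfs1, 38.9% for Isca1, 17.3% for Alas1 and 12.5% for Fech, against a median of 54.1% over all genes tested. The sets were found on these same values, so the shares are a description. The 2 haem genes thus varied mostly from heart to heart inside the sets.

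The genes with the most similar course were sought by the correlation of deviations from the group means over the 20 arrays. For Nfs1 they were Tango2 (r = 0.88), Coq2 (0.88) and Coq9 (0.87), and all 3 were called lower in old, at −0.76, −0.32 and −0.54 (limma adjusted p = 0.00364, 0.0221 and 0.00170). For Fech they were Mkrn1 (r = 0.98), the red cell marker Bpgm (0.95) and Rsad2 (0.95). Mkrn1 and Bpgm were called higher, by 1.31 and 1.44, and Rsad2 at 1.30 was not (limma adjusted p = 0.0587). For Iscu they were 1810058I24Rik, Pfdn1 and Dhrs11 (0.88 each), and for Glrx5 Psme3 (0.92), Smox (0.89) and 1810058I24Rik (0.89). For Isca2 they were Ndufaf3 (0.97), Arpp19 (0.96) and Mrps36 (0.95), for Hscb Dctn3 (0.94), Cript (0.93) and Pigbos1 (0.90), and for Isca1 Gpaa1 (0.87), Urod (0.87) and Gadd45a (0.86). For Lyrm4 they were Psmb2, Maip1 and Dnajc15 (0.87 each), and for Alas1 Supv3l1 (0.89), Adsl (0.84) and Eps15l1 (0.83). These values are the highest of all genes for each member, so they carry no test, and the arrays share their sets.

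Genes around the 2 pathways were read from 4 lists, written with earlier results of these data known. The assembly list also holds genes of the cytosolic machinery: Ciao1, Ciao2a, Ciao2b, Ciao3, Ciapin1, Nubp1, Nubp2, Mms19 and Bola2. Its counts and its median therefore do not describe the mitochondrial pathway alone. Among the other genes of iron-sulfur assembly, 2 of 19 tested were called lower and 0 higher (limma; 4 and 1 at an unadjusted p under 0.05), with a median of −0.14. The list's share of calls was 10.5%, against 18.7% of all genes. Bola3, which acts with the late carriers, went from 11.89 ± 0.20 in young to 11.53 ± 0.24 in old (SD, n = 10 per group), a difference of −0.37 ± 0.10 (SE; limma adjusted p = 0.0167). Nubpl, an assembly factor for the clusters of complex I, went from 7.82 ± 0.27 to 7.34 ± 0.36 (SD, n = 10 per group), a difference of −0.48 ± 0.14 (SE; limma adjusted p = 0.0167). Both were lower in all 5 array sets, and in 20 of 20 fits that left out 1 array they were called. Neither was called with the atrial index or without the 7 old arrays, and Nubpl then stood at −0.39 and −0.16. Hspa9, the mitochondrial chaperone that works with Hscb, was at −0.11 (limma adjusted p = 0.613).

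Haem synthesis and handling split in direction. Of 22 tested genes, 6 were called lower and 2 higher, a share of 36.4% called against 18.7% of all genes, and the median was −0.082. Lower were Alad, the second enzyme of the pathway (−0.41 ± 0.11, SE; limma adjusted p = 0.0111), and Slc25a38, which imports glycine for the first step (−0.73 ± 0.20, SE; limma adjusted p = 0.0129). Slc25a38 lay near the filter of 4, at 4.34 ± 0.49 in old and 5.07 ± 0.47 in young (SD, n = 10 per group), and was not tested with the filter at 6. Also lower were Cox10 and Cox15, which turn haem into the form that cytochrome c oxidase needs, at −0.36 and −0.52 (limma adjusted p = 0.0298 and 0.00558). These 4 were lower in each of the 5 array sets; Alad, Slc25a38 and Cox15 were called in all 20 fits that left out 1 array, and Cox10 in 13. Without the 7 old arrays none of the 4 was called, nor Pgrmc1; Cox10 was then at −0.12 and Cox15 at −0.31 (limma adjusted p = 0.730 and 0.294), and Pgrmc1 was at 0.40 (limma adjusted p = 0.294). In the fit that held the atrial index Cox10, Cox15 and Pgrmc1 were not called, while Alad and Slc25a38 were. Pgrmc1, a haem-binding membrane protein, was higher by 0.66 in the comparison as reported (limma adjusted p = 0.00311). Alas2 was higher by 1.85 ± 0.49 (SE; limma adjusted p = 0.0102), with 9 of 10 old arrays above every young one, and is itself one of the red cell markers above. With the red cell index as a covariate, which holds Alas2, it was at 0.18. Alas2 was not called with the atrial index (1.55, limma adjusted p = 0.196). It was not called without the 7 old arrays either (1.39, limma adjusted p = 0.0527). The inducible haem oxygenase gene Hmox1, which breaks haem down, lay near the filter of 4, at 4.83 ± 0.66 in old and 4.38 ± 0.35 in young (SD, n = 10 per group). Its difference was 0.45 and not called (limma adjusted p = 0.163). It was above 0 in all 5 array sets and called with the set as a block (limma adjusted p = 0.0414), but stood at 0.043 without the 7 old arrays.

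Of 17 genes of iron uptake and storage, 4 were called higher and 0 lower (limma; 6 and 1 at an unadjusted p under 0.05), with a median of 0.051. The list's share of calls was 23.5%, against 18.7% of all genes, 11.2% as higher. Slc25a37, a mitochondrial iron importer prominent in red cell precursors, went from 7.82 ± 0.42 in young to 9.40 ± 1.71 in old (SD, n = 10 per group; limma adjusted p = 0.0321). It was called in 16 of 20 fits that left out 1 array, not without old replicate 1, 4 or 5 or young replicate 14. With the red cell index as a covariate its estimate turned to −0.16. Slc25a37 was not called in that fit, in the fit that held the atrial index or without the 7 old arrays. Ncoa4, the receptor that delivers ferritin to lysosomes, was higher by 0.69, Cp, ceruloplasmin, by 0.56 and Hfe by 0.32 (limma adjusted p = 0.0100, 0.0124 and 0.0382). Hfe kept its call in 10 of those 20 fits, Ncoa4 and Cp in 20. None of the 3 was called in the fit that held the atrial index (limma adjusted p = 0.201, 0.163 and 0.244 for Hfe, Ncoa4 and Cp), without the 7 old arrays (0.152, 0.151 and 0.121) or with the red cell index (0.215, 0.427 and 0.258). Hfe was not called under quantile normalization or centring on the tested genes either (limma adjusted p = 0.0601 and 0.0784). Ncoa4 was at 0.24 with the red cell index. Slc25a28, the mitochondrial iron importer of most tissues, was at −0.17 (limma adjusted p = 0.487), and the ferritin heavy chain gene Fth1 was at 0.051 (limma adjusted p = 0.678). The difference of Slc25a37 from Slc25a28 or Fth1 was not tested.

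Of 11 tested genes for mitochondrial proteins that hold iron-sulfur clusters, 5 were called lower and 0 higher (limma; 8 and 0 at an unadjusted p under 0.05), with a median of −0.24. The list's share of calls was 45.5%, against 18.7% of all genes, 7.49% as lower. Etfdh, which passes electrons from fatty acid oxidation to ubiquinone, fell from 12.59 ± 0.10 in young to 12.32 ± 0.16 in old (SD, n = 10 each; limma adjusted p = 0.0151), with 9 of 10 old arrays below every young one. The complex I subunit genes Ndufs7, Ndufs8, Ndufs1 and Ndufv1 fell by 0.33, 0.28, 0.26 and 0.24 (limma adjusted p = 0.0183, 0.0436, 0.0315 and 0.0454). All 5 were lower in each array set. Of these, Etfdh and Ndufs7 were called in all 20 fits that left out 1 array, Ndufs1 in 13, and Ndufs8 and Ndufv1 in 7 each. None of the 5 was called with the atrial index or without the 7 old arrays.

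**Figure D5:**
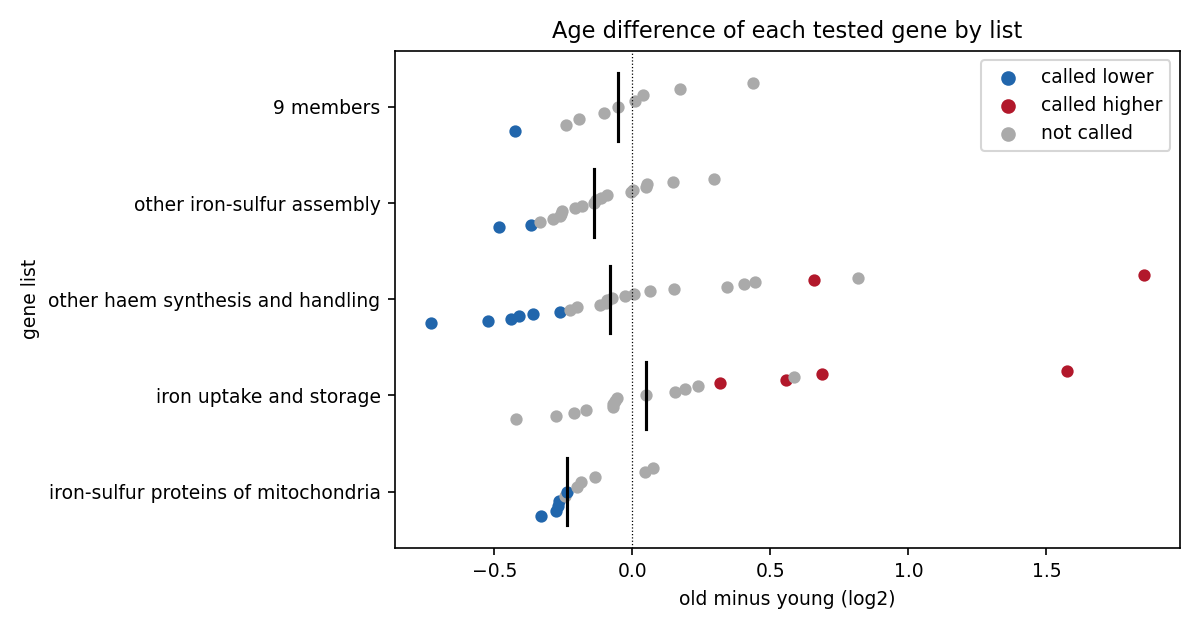
Difference of old minus young (horizontal axis, log2) for each tested gene of the 9 members and of the 4 lists (vertical axis); blue points were called lower, red points higher and grey points not called, and black bars are medians. Medians are −0.051 for the members, −0.14 for other assembly genes, −0.082 for haem, 0.051 for iron uptake and storage and −0.24 for iron-sulfur proteins.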

How the data were processed

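The authors deposited 1 table of log2 values for 20 arrays, made with GCRMA per the submitters' processing notes; its version is not given in the sources used here. That the scale is log2 follows from the range of the values. Groups came from the sample titles; the design text calls both age ranges young. Probe sets with 1 gene in the platform annotation (34945 of 45101) were named and updated by gene identifier to GRCm38.p6. A probe set passed when its log2 value was above 4 in at least 10 arrays, and the passing one with the highest mean stood for its gene, for 9275 genes in all. Limma 3.58.1 in R 4.3.3 (lmFit, eBayes, no covariate) compared the groups, with Benjamini-Hochberg adjustment over all genes. The code was tested on simulated data. Array sets came from average linkage clustering of 1 minus r of deviations from the group means, with the tree cut at a chosen number of 5 sets. The members, lists, groups of arrays and other settings were chosen with earlier results of these data known, and the red cell index as a covariate and centring on the tested genes after that. Named genes are the members, up to 6 called genes per list by p, 9 fixed genes, some of which are not reported here, and the 3 most similar genes per member. The number of arrays limits the precision.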

Additional observations from a re-analysis of the deposited data

Results flagged for a closer look

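Dixon's rule was applied to the 62 groups of 10 values behind the genes named with a planned test, and chance alone marks about 1 in 20 groups. It marked 5. Old replicate 9 stood apart for Fech at 12.47, with the next old array at 10.81, and for Glrx5 at 12.19, with the next at 11.38. The same array had the highest red cell index, 12.23. Old replicate 8 stood apart at the low end for Bola3, at 10.92 against 11.42, and for Ndufs8, at 13.64 with a gap of 0.50 of the group's range to the next. Young replicate 14 stood apart for Hmox1, at 5.19 against 4.56.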

How the results depend on the processing

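The call of Nfs1 as the only member held under quantile normalization, both kinds of centring, no filter, a filter at 6, the mean of probe sets, an intensity trend in limma, the array set as a block and all 20 fits without 1 array (1 to 1 member called). In those settings 17.9% to 23.9% of all genes were called, 36.1% with the block and at most 19.7% without 1 array. The red cell index and centring on the tested genes were chosen after seeing the data. In the fits with the atrial index, those without the 7 old arrays and those with the red cell index, 0 members were called (limma; 1, 1 and 3 lower and 0 higher at an unadjusted p under 0.05), and with red cell index and sets together 2. The other assembly list had 2 calls as reported, 4 with no filter, 4 with centring on the tested genes, 8 with the set block, and 0 in each of the fits that held the atrial index, left out the 7 arrays, held the red cell index or held that index and the sets; without 1 array it had 2 to 3. At an unadjusted p under 0.05 those 4 fits held 2, 1, 1 and 4 lower and 1, 0, 1 and 1 higher. The haem list had 8, then 2 with the atrial index, 0 without the 7 arrays (3 lower and 2 higher unadjusted), 1 with the red cell index, 4 with index and sets, and 5 to 8 without 1 array. It had 5 without old replicate 5, 6 or 8 or young 11, 12 or 14. The iron list had 4, then 7 with no filter, 7 with the set block, 0 with the atrial index (1 lower and 5 higher unadjusted), 0 without the 7 arrays (2 and 6), 0 with the red cell index (0 and 3), 2 with index and sets, and 2 to 5 without 1 array, with 2 when old replicate 1 or 5 was left out. The iron-sulfur protein list had 5, then 2 with median centring, 9 with centring on the tested genes, 8 with no filter, 3 with the mean of probe sets, 8 with the set block, 0 with the atrial index (3 lower unadjusted), 0 without the 7 arrays (1) and 0 with the red cell index (3), 1 with index and sets, and 2 to 5 without 1 array. It had 2 without old replicate 8 or 9 or young 15, and 3 without old 4 or 5 or young 12, 13, 14, 16, 19 or 20. All genes shifted by a median of 0.0088 as deposited, −0.058 after quantile normalization, 0.042 with median centring and −0.055 with centring on the tested genes, and rises made up 59.9%, 43.1%, 68.6% and 41.9% of calls.

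Some estimates that were not called changed sign. With the red cell index Iscu was at −0.047, Isca1 at −0.13, Glrx5 at −0.30, Fech at −0.36 and Fth1 at −0.016, and the called Slc25a37 was at −0.16. With index and sets Isca1 was at −0.12, Glrx5 at −0.26, Lyrm4 at 0.052, Fech at −0.36 and Slc25a37 at −0.24. Glrx5 was at −0.0037 after quantile normalization, −0.063 once the atrial index was fitted and −0.065 without the 7 arrays, where Lyrm4 was at 0.056, and Alas1 was at 0.10 with the atrial index. With centring on the tested genes Isca1 was at −0.025, Glrx5 at −0.053 and Fth1 at −0.013. Without 1 array Isca1 ran from −0.018 to 0.081, Glrx5 from −0.095 to 0.068 and Lyrm4 from −0.13 to 0.0011. The cause of these changes was not tested. No paired analysis was possible because the title numbers run from 1 to 10 in old and from 11 to 20 in young.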
